A study of Mus musculus with 2 samples.

Results

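Elane, Mpo, Prtn3, Ctsg, Camp, Ltf, Ngp, Lcn2, Chil3 and S100a8 encode proteins that neutrophils pack into granules or hold in bulk in the cytosol. The 10 genes were chosen by symbol, and each matched 1 of the 33696 genes counted in the deposited matrices. Transcripts were counted in single cells from mouse dura mater, which lines the skull as the outer brain membrane. The JVL-14 library came from female mice whose jugular veins had been ligated 14 days before, and the sham library from female mice after sham surgery, with the time since that surgery not given in the sources used here. In both groups mice were perfused, the dura was peeled off the skullcap and digested, each well took cells from 2 meninges, and viable singlets were sorted with 20000 cells loaded on the droplet chip. Strain, age and the number of mice are not given in the sources used here. Each group has 1 library, so no difference has a replicate check and none was tested. Every interval in brackets is an exact 95% interval that covers counting error only, and every ratio is JVL-14 over sham.

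Neutrophils make their granule proteins in waves as they mature in the bone marrow. The serine proteases elastase (Elane), proteinase 3 (Prtn3) and cathepsin G (Ctsg) and the enzyme myeloperoxidase (Mpo) are made first, in promyelocytes, and fill the primary or azurophil granules. Cathelicidin (Camp), lactoferrin (Ltf), neutrophilic granule protein (Ngp) and lipocalin 2 (Lcn2) follow at the myelocyte and metamyelocyte stages and fill the secondary or specific granules. S100a8, a calcium-binding protein of the cytosol, stays abundant in mature cells, and Chil3, a chitinase-like lectin, is made by maturing neutrophils and by some monocytes in mice. The marrow of the skull lies next to the dura.

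The sequences before the start of 4 primary and 2 secondary granule genes are shown because the members of each wave were found in the same cells. They are the 250 bases before the gene start, 5′ to 3′ on the gene's own strand, from RefSeq on GRCm38.p6, which is not the build of the counts. Elane lies at chr10:79886062-79886311 on the plus strand, Mpo at chr11:87793534-87793783 on the plus strand and Prtn3 at chr10:79879417-79879666 on the plus strand. Ctsg lies at chr14:56102575-56102824 on the minus strand, Camp at chr9:109849457-109849706 on the minus strand and Ltf at chr9:111019042-111019291 on the plus strand. Capitals mark AGGAAGT, the type of site bound by the ETS factor PU.1, and AACGG, the type bound by MYB, searched on both strands.
Elane: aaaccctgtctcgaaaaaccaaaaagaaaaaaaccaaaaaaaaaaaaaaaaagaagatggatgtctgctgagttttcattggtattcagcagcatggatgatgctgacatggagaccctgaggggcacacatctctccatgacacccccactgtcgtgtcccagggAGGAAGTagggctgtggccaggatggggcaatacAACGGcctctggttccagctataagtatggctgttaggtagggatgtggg
Mpo: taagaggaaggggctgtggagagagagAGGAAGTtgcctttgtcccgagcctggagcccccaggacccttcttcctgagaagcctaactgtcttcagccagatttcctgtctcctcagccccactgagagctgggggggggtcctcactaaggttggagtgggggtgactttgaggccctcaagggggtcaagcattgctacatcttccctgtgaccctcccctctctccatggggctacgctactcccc
Prtn3: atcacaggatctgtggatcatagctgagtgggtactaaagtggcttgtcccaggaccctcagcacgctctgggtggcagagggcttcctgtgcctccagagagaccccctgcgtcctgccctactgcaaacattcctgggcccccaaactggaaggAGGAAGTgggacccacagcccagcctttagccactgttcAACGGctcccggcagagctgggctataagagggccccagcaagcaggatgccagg
Ctsg: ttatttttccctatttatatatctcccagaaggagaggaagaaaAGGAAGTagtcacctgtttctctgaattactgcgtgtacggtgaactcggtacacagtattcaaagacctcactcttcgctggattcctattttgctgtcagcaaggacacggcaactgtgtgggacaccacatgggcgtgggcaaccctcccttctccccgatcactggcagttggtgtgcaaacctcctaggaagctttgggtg
Camp: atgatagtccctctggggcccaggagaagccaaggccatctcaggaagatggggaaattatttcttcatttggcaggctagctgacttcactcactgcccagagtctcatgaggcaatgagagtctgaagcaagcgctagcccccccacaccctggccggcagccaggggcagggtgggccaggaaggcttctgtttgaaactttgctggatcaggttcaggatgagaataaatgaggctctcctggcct
Ltf: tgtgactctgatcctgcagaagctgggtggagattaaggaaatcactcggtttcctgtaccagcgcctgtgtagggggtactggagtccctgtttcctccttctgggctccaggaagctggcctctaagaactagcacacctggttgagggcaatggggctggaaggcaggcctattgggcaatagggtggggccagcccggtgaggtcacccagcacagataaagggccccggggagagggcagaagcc
AGGAAGT was found in the windows of all 4 primary granule genes, where it starts 84 bases before the start of Elane, 223 before Mpo, 94 before Prtn3 and 206 before Ctsg. On the opposite strand it was found before Chil3 and S100a8, which made 6 of the 10 members, and it was found in 7.69% of the 32851 promoters in the table. AACGG was found before Elane and Prtn3, 50 and 55 bases upstream, and in 14.5% of all promoters. The C/EBP-type motif TTNNGNAA, in which N is any base, was found before Ltf, Ngp, Lcn2, Chil3 and S100a8, and in 36.8% of all promoters. The motifs were picked after the sequences had been read, and a match is a run of letters, not a shown site.

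The JVL-14 library held 3004 barcodes and 18796260 unique molecular identifiers (UMIs, each marking 1 captured transcript), and the sham library 5495 barcodes and 33996641 UMIs. After filtering, 2471 JVL-14 and 4672 sham cells remained, with medians of 4530 and 4502 UMIs per cell, and 1 retained barcode was shared by both libraries. Cells were clustered without the 10 genes, and clusters were named from markers that exclude them, so a name means only that a cluster was like that type. The dura's fibroblast-like (198 JVL-14 and 471 sham cells) and macrophage-like cells (249 and 477) were present. The libraries differed in cells of other tissues, with 3 JVL-14 and 249 sham skeletal muscle-like cells, 0 and 77 choroid plexus-like cells, and 191 and 178 olfactory-type neurons. Marrow-type cells differed too, with 264 JVL-14 and 200 sham B cell precursor-like cells and 107 and 78 erythroid-like cells. Their part in the results below was not tested.

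The neutrophil lineage took 136 JVL-14 and 187 sham cells in 6 clusters, here N1 to N6. They were numbered by stage name and, within a stage, from the highest to the lowest level of Cebpe. N1 (24 JVL-14 and 6 sham cells) was neutrophil precursor-like, by Prss57, Ms4a3 and 3 other markers. Ms4a3 had 400 JVL-14 and 81 sham UMIs in N1, against 63 and 17 in N2. Prss57 had 66 and 5, against 16 and 4. Fcnb went the other way, with 5 and 1 UMIs in N1 and 190 and 136 in N2. Cebpe did too, with 20 and 0 UMIs in N1 and 159 and 118 in N2. Irf8 had 127 and 55 UMIs in N1 and 0 in N2 in both libraries. Of Prss57, Fcnb and Cebpe, sham N1 thus held few UMIs or none, so its name is less secure. N2 (31 and 43 cells), N3 (25 and 33) and N4 (9 and 37) were maturing neutrophil-like, but the leading genes of N2 and N4 held more markers of another stage than of their own, so values are given by cluster. N5 (19 and 36) and N6 (28 and 32) were mature neutrophil-like, by genes such as Stfa2l1. Monocyte-like cells formed M1 (6 JVL-14 and 30 sham cells), which led with Ly6c2 and the cell-cycle gene Aurkb, M2 (9 and 9) and M4 (17 and 50). Of all retained cells, 529 JVL-14 (21.4%) and 1263 sham cells (27%) stayed unnamed.

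The primary granule genes were nearly confined to N1, M1, M2 and 1 cell of N2, and were close to absent from N3 to N6, where the 4 genes together never exceeded 3 UMIs in a cluster of either library. In N1, Elane was at 7529 CPM (UMIs per 1000000 UMIs of the cluster) in JVL-14 and 3956 CPM in sham, Mpo at 4338 and 3211 CPM, Prtn3 at 5596 and 6009 CPM and Ctsg at 3106 and 3234 CPM. All 4 genes were found together in 12 of 24 JVL-14 and 3 of 6 sham cells of N1. In the cycling monocyte-like M1 they were lower than in N1, with Elane at 738 CPM in JVL-14 and 434 CPM in sham and Prtn3 at 1808 and 976 CPM. All 4 were found together in 2 of 6 JVL-14 and 10 of 30 sham cells of M1.

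**Figure D1:**
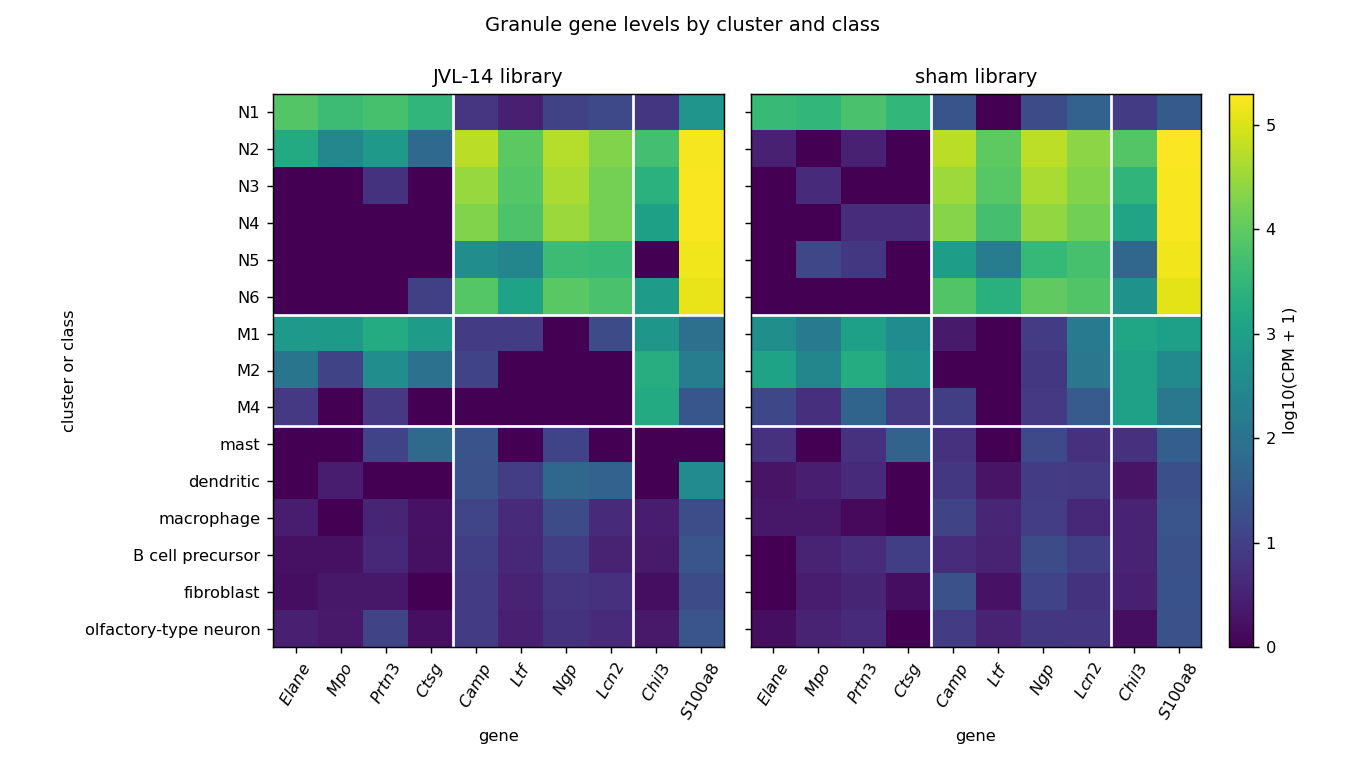
Level of each of the 10 genes as log10(CPM + 1), by colour, in clusters N1 to N6, monocyte-like clusters M1, M2 and M4 and 6 other classes, with JVL-14 on the left and sham on the right. The 4 primary granule genes are highest in N1 and lower in the monocyte-like M1 and M2. In JVL-14 M2, Mpo was found in 1 of 9 cells. JVL-14 N2 shows the primary genes too (Elane at 1697 CPM), almost wholly from 1 cell. The 4 secondary granule genes are high in N2 to N4, and S100a8 from N2 to N6.

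The make-up of the primary granule transcripts, pooled over few cells, differed between these clusters. In sham N1, 3 cells held all of these UMIs, and in JVL-14 M1, 2 cells held 320 and 212 of the 549. The intervals count UMIs and do not cover differences between cells. Prtn3 took 27.2% (26.3 to 28.1) of the 10351 primary granule UMIs of JVL-14 N1 and 36.6% (34.6 to 38.7) of the 2182 UMIs of sham N1. In M1 it took 43.7% (39.5 to 48) of 549 JVL-14 UMIs and 49.9% (47.2 to 52.6) of 1335 sham UMIs, and in M2 64.2% (49.8 to 76.9) of 53 JVL-14 UMIs and 48.9% (44.9 to 52.9) of 634 sham UMIs. In each library Prtn3 thus weighed more in both monocyte-like clusters than in N1. Mpo took 21.1% (20.3 to 21.9) of the JVL-14 and 19.6% (17.9 to 21.3) of the sham UMIs of N1, against 18.2% (15.1 to 21.7) and 8.31% (6.89 to 9.93) in M1. The Mpo shares of N1 and M1 lay apart in sham, while their intervals overlapped in JVL-14, where 2 cells held all 100 Mpo UMIs of M1. Elane took 36.6% (35.7 to 37.5) of the JVL-14 and 24.1% (22.3 to 26) of the sham UMIs of N1.

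Over all retained cells, the 4 primary granule genes were 3.4 to 8.05 times higher in JVL-14 than in sham, while the 4 secondary granule genes, Chil3 and S100a8 differed by less than 1.5-fold. Elane had 4501 UMIs (294 CPM) in JVL-14 and 1037 UMIs (36.5 CPM) in sham, a ratio of 8.05 (7.52 to 8.62). Mpo had 2390 UMIs (156 CPM) in JVL-14 and 615 UMIs (21.7 CPM) in sham, a ratio of 7.2 (6.59 to 7.88). Prtn3 had 3397 UMIs (222 CPM) in JVL-14 and 1852 UMIs (65.2 CPM) in sham, a ratio of 3.4 (3.21 to 3.6). These proteases and Mpo were thus higher in JVL-14 by unequal factors. For Ctsg the values were 1718 UMIs (112 CPM) in JVL-14 and 803 UMIs (28.3 CPM) in sham, a ratio of 3.97 (3.65 to 4.32). Of 6545 genes measured (a summed count of at least 20 and a mean of at least 20 CPM), 5.04% were at least 1.5-fold higher and 5.01% at least 1.5-fold lower in JVL-14, against 4 and 0 of the 10 members. The median log2 ratio was 0.17 over the members and -0.03 over the genes measured.

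The size of these ratios depended on the removal of suspected doublets, barcodes that score like a mixture of 2 cells. The removed barcodes held 3680 primary granule UMIs in JVL-14, 23.5% of those in all filtered barcodes, and 10619 in sham, or 71.1%. With them kept, the 4 genes summed to 932 CPM in JVL-14 and 471 CPM in sham, a ratio of 1.98 (1.94 to 2.02) in place of 5.17 (4.99 to 5.35). The ratio of Elane was then 2.44 (2.35 to 2.54), that of Ctsg 1.87 (1.76 to 1.98), and those of Mpo and Prtn3 both 1.73. The 4 genes stayed at least 1.5-fold higher, as did 4.83% of genes measured. Chil3, at 233 CPM in JVL-14 and 357 CPM in sham, became at least 1.5-fold lower (0.653, 0.63 to 0.677), as did 4.48% of genes. The other members lay between 0.839 (Lcn2) and 0.951 (Ltf). Of the removed barcodes, 9 of 137 in JVL-14 and 20 of 279 in sham held at least 20 primary granule UMIs, and only 3 and 5 of these also held at least 20 secondary granule UMIs. Whether the removed barcodes were doublets or large single precursors was not tested.

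**Figure D2:**
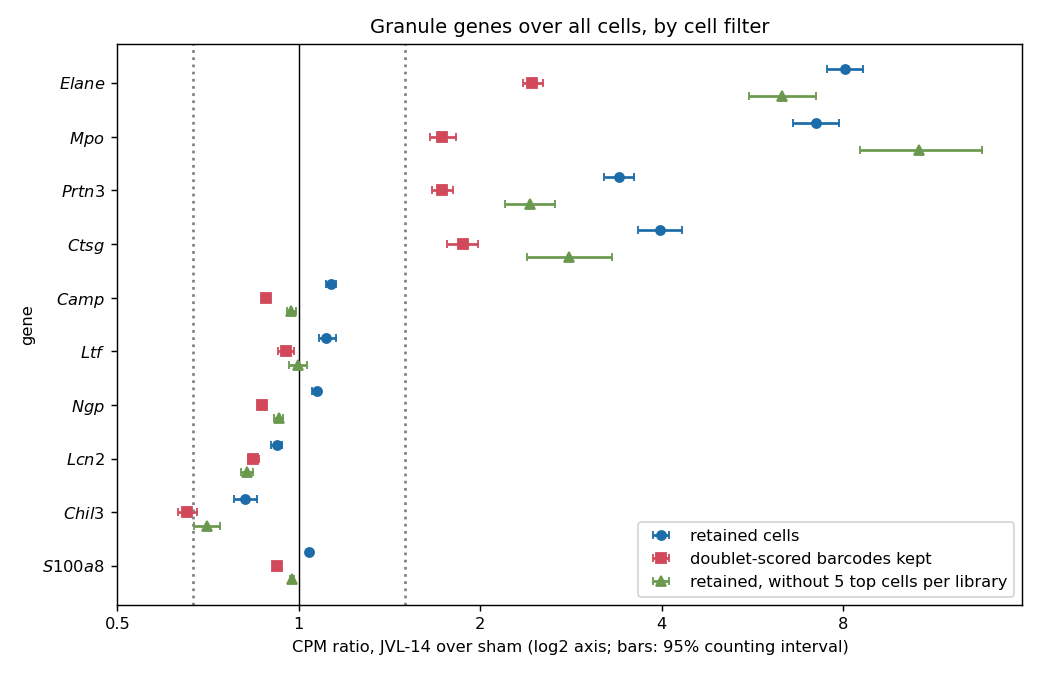
Ratio of CPM, JVL-14 over sham, on a log2 axis for each of the 10 genes over all retained cells, with the doublet-scored barcodes kept, and without the 5 cells of each library that hold most of each gene, with 95% intervals for counting error and dotted lines at 1.5-fold. The ratios of Elane and Mpo drop to 2.44 and 1.73 when the doublet-scored barcodes are kept, and those of the secondary granule genes and S100a8 lie on both sides of 1.

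A few cells carried the primary granule transcripts. The 5 cells richest in them held 74.6% of the 12006 primary granule UMIs in JVL-14 and 65.7% of the 4307 UMIs in sham. Without those 5 cells the ratio was 3.87, and 1.57 with the doublet-scored barcodes kept as well. Cells with at least 20 primary granule UMIs numbered 16 of 2471 in JVL-14, or 0.648% (0.371 to 1.05), and 21 of 4672 in sham, or 0.449% (0.278 to 0.686). The ratio of these shares, 1.44, had an interval of 0.703 to 2.9, which counts cells within 1 library per group. At limits of 10, 50 and 100 UMIs the ratio was 1.38 (0.723 to 2.59), 1.89 (0.808 to 4.43) and 2.36 (0.84 to 6.89). Within 10 to 39 UMIs, near that limit, lay 5 JVL-14 and 11 sham cells.

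In content and cluster the cells with at least 20 differed as well. They held a median of 266 and a maximum of 2379 primary granule UMIs in JVL-14, and a median of 63 and a maximum of 840 in sham. At least 500 such UMIs were held by 7 JVL-14 and 3 sham cells. With the doublet-scored barcodes kept, that count was 10 in JVL-14 and 11 in sham, and the maxima were 2379 and 2372. In JVL-14, 13 of the 16 cells fell in N1, 1 in N2 and 2 in M1. In sham, 3 of the 21 fell in N1, 13 in M1 and 5 in M2. None lay outside the myeloid clusters, here those closest by markers to a neutrophil stage or to monocytes, in either library.

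**Figure D3:**
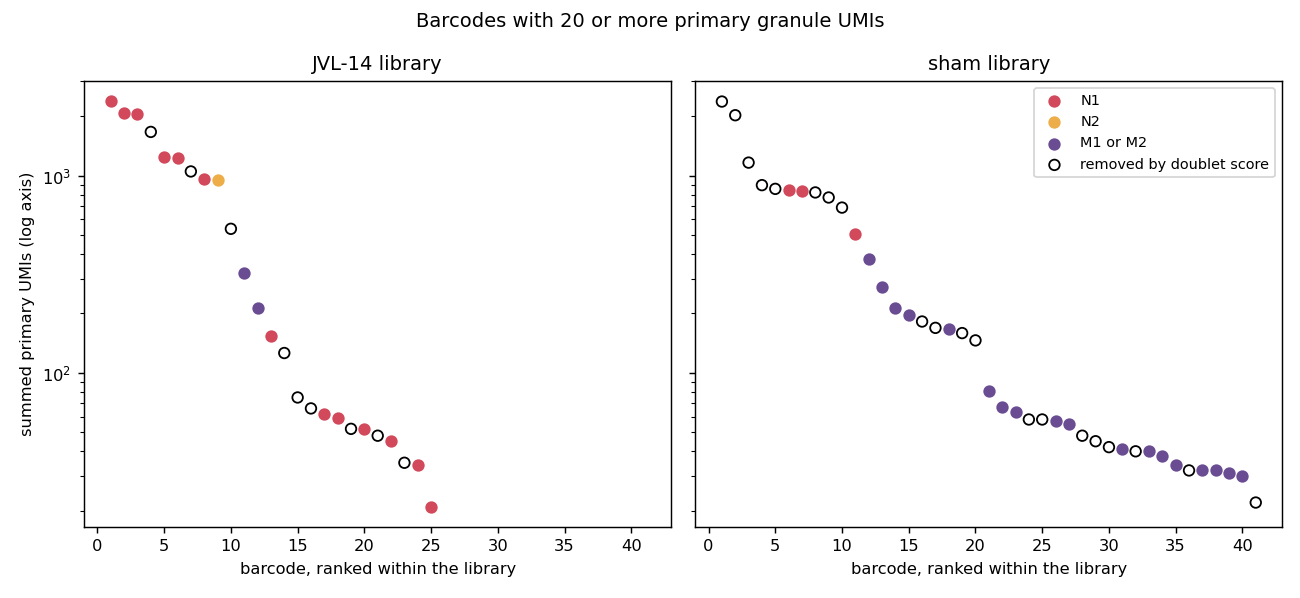
Barcodes with at least 20 primary granule UMIs, ranked by that number (log axis) in JVL-14 on the left and sham on the right, coloured by cluster, with open points for barcodes removed by the doublet score. The retained JVL-14 barcodes reach 2379 UMIs and lie mostly in N1, the retained sham barcodes reach 840 UMIs and lie mostly in M1 and M2, and open sham points reach 2372 UMIs.

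Some of the JVL-14 precursor-like barcodes resembled larger barcodes of the same library. Barcodes within 2 substitutions of one with at least 10 times their UMIs numbered 18 of the retained JVL-14 and 15 of the retained sham barcodes, with 7 and 2 of them in N1. Of these, 5 in JVL-14 and 0 in sham held at least 20 primary granule UMIs. The 5 had 507 to 2380 UMIs, of which 21 to 62 were primary granule UMIs, and their larger partners had 17.6 to 142 times as many UMIs. The partner was itself in N1 for 4 of them and had been removed as a doublet for the fifth. Without all such barcodes, cells with at least 20 primary granule UMIs made 11 of 2453 in JVL-14 and 21 of 4657 in sham, a ratio of 0.994 (0.433 to 2.16), while the summed level changed little (768 CPM in JVL-14 and 152 CPM in sham). Whether such a pair is 1 cell was not tested.

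As a share of retained cells, N1 made 0.971% (0.623 to 1.44) in JVL-14 and 0.128% (0.0471 to 0.279) in sham, a ratio of 7.56 (3.01 to 22.6). How these cells clustered depended on the barcodes kept. With the doublet-scored barcodes kept, all 24 JVL-14 and 6 sham cells of N1 joined a cluster of 65 JVL-14 and 99 sham cells, which was led by the basophil gene Mcpt8 and by Ctsg, Mpo, Prtn3 and Elane and named basophil-like. That cluster also took all 6 JVL-14 and 30 sham cells of M1, with 21 and 37 barcodes that the score would have removed, and the ratio of its share was 1.25 (0.897 to 1.72). The name precursor-like then went to another cluster, led by Fcnb, Orm1 and Chil3, with 7 JVL-14 and 21 sham cells and none of N1, so it holds other cells than N1. N1 was also mixed. At least 20 primary granule UMIs were held by 13 of its 24 JVL-14 and 3 of its 6 sham cells, and none by 6 and 3 cells, while 7 and 3 cells had under 1000 UMIs in all. A UMI of the erythroid and megakaryocyte factor Gata1 was found in 4 JVL-14 and 0 sham cells of N1, none of which held 20 primary granule UMIs.

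Within N1 the summed primary granule level was 20569 CPM in JVL-14 and 16410 CPM in sham, a ratio of 1.25 (1.2 to 1.31). In sham, 3 cells held all of these UMIs, so the N1 intervals, which count UMIs and not cells, are too narrow. Elane alone passed 1.5-fold among the 4 (1.9, 1.74 to 2.09), while Prtn3 (0.931, 0.861 to 1.01) and Ctsg (0.96, 0.863 to 1.07) had intervals that include 1. S100a8 was the other member past 1.5-fold, with 298 UMIs in JVL-14 and 4 in sham, but 258 of the 298 came from 1 cell. That made 2 of 5 measured members higher and 0 lower, beside 18.5% higher and 19.8% lower among 4010 genes measured in N1. The secondary granule genes were almost absent from N1, with 16 UMIs in JVL-14 and 11 in sham.

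In the monocyte-like clusters the primary granule genes did not move one way. M1 had 4137 CPM of them in JVL-14 (6 cells) and 1957 CPM in sham (30 cells), a ratio of 2.11 (1.91 to 2.34). M2 had 608 CPM in JVL-14 and 3890 CPM in sham (9 cells each), a ratio of 0.156 (0.116 to 0.207). The directions were thus opposite, and 5 cells or fewer held most of these UMIs in each cluster (69.3% to 100%). Over M1, M2 and M4 together the level was 1610 CPM in JVL-14 and 1538 CPM in sham (1.05, 0.954 to 1.15). Of the 7 members measured there, only Mpo was at least 1.5-fold higher (10.9% of 5283 genes were), at 269 CPM in JVL-14 and 121 CPM in sham. Lcn2 and S100a8 were at least 1.5-fold lower (9.82% of genes were), S100a8 at 82.6 CPM in JVL-14 and 606 CPM in sham. Of the 673 S100a8 UMIs of sham M1, 375 came from 1 cell. These monocyte-like cells held 5.03% of all primary granule UMIs in JVL-14 and 46.5% in sham.

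The secondary granule genes were highest in N2. The median cell held 1360 of their UMIs in JVL-14 and 1836 in sham in N2, 720 and 778 in N3, 297 and 366 in N4, 17 and 39 in N5, and 8 and 17.5 in N6. In both libraries the median cell thus held fewer of them in each cluster down this order, which was set by stage name and falling Cebpe. These are raw counts, and depth fell as well. The median cell had 9889 UMIs in JVL-14 and 12340 in sham in N2, against 3608 and 4056 in N6. Camp, the precursor of an antimicrobial peptide, was at 55116 CPM in JVL-14 and 57066 CPM in sham in N2, 30659 and 33002 CPM in N3, 20030 and 21559 CPM in N4, 395 and 919 CPM in N5 and 7850 and 7409 CPM in N6. Camp thus ran down from N2 to N5 and was higher in N6 than in N5, but 829 of the 877 Camp UMIs of JVL-14 N6 were in 1 cell. Ltf, the iron-binding protein lactoferrin, was at 9221 and 9467 CPM in N2, 8022 and 8532 CPM in N3, 6600 and 5475 CPM in N4, 276 and 176 CPM in N5 and 1199 and 2339 CPM in N6 (JVL-14 and sham each time). Ltf dropped less between N2 and N3 than Camp did.

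Lcn2, which binds bacterial iron carriers, was still found in most cells of the mature clusters, unlike Camp and Ltf. In N5 a Lcn2 UMI was found in 16 of 19 JVL-14 and 31 of 36 sham cells, against 7 and 13 cells for Camp and 1 and 5 cells for Ltf. Its level was 19352 CPM in JVL-14 and 23949 CPM in sham in N2, 15257 and 19457 CPM in N3, 15701 and 14895 CPM in N4, and 3831 and 5787 CPM in N5. Ngp, a protein of the cathelicidin and cystatin type, had 50287 CPM in JVL-14 and 58130 CPM in sham in N2 and 4384 and 3584 CPM in N5, found in 11 of 19 and 29 of 36 cells.

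Between the libraries, the secondary granule genes differed little in the clusters that hold most of their transcripts. In N2, which held 62.6% of these UMIs in JVL-14 and 57.2% in sham, Camp had a ratio of 0.966 (0.948 to 0.984), Ltf 0.974 (0.931 to 1.02), Ngp 0.865 (0.849 to 0.882) and Lcn2 0.808 (0.784 to 0.833). No member was 1.5-fold lower in N2 (7.99% of 2892 genes were), and the 4 called higher (23.3% of genes were) were the primary granule genes, whose UMIs came almost wholly from 1 cell. In N3, 0 of 6 measured members passed 1.5-fold in either direction, beside 13.3% of 1689 genes higher and 10.7% lower. In N4, 0 of 6 passed it, beside 17.3% of 1311 genes higher and 20.4% lower. Lcn2 in N3 came nearest, at 15257 CPM in JVL-14 and 19457 CPM in sham (0.784, 0.75 to 0.82).

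In the mature clusters the low values moved more. In N5, Camp (30 UMIs in JVL-14 and 151 in sham) and Lcn2 (0.662, 0.578 to 0.756) were at least 1.5-fold lower, as were 14.8% of 1114 genes. Ltf was higher (18.5% of genes were), but all 21 of its JVL-14 UMIs were in 1 cell. In N6, Ltf was lower (0.513, 0.417 to 0.627), as were 16.4% of 1358 genes, and Chil3 was higher (12.7% of genes were), with 93 of its 94 JVL-14 UMIs in 1 cell. Over the maturing clusters together the summed secondary genes had a ratio of 0.994 (0.985 to 1), and over the mature clusters of 0.966 (0.926 to 1.01). The value of the mature clusters rested on 1 cell of N6, which held 1945 of the 3369 secondary granule UMIs of the JVL-14 mature clusters. Without the 5 richest cells of each library it was 0.516 (0.474 to 0.561). That left out 5 of 47 JVL-14 and 5 of 68 sham cells, a larger part of the JVL-14 cells, so the 2 sides were not trimmed alike.

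Among retained cells few held both the primary and the secondary wave. At least 20 secondary granule UMIs were held by 83 JVL-14 cells, or 3.36% (2.68 to 4.15), and by 153 sham cells, or 3.27% (2.78 to 3.83), a ratio of 1.03 (0.776 to 1.35). Only 1 JVL-14 cell and 0 of 4672 sham cells (exact upper bound 0.0789%) held at least 20 of both. The JVL-14 cell, in N2, had 40172 UMIs, of which 585 were Elane, 252 Prtn3, 95 Mpo, 22 Ctsg, 1427 Camp, 196 Ngp, 27 Lcn2, 94 Chil3 and 3669 S100a8, with 0 for Ltf. It held 954 of the 957 primary granule UMIs of JVL-14 N2. It was not removed by the doublet score, and whether it was 1 cell was not tested. The doublet score bears on this count, since 3 JVL-14 and 5 sham barcodes that it removed also held at least 20 of both.

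**Figure D4:**
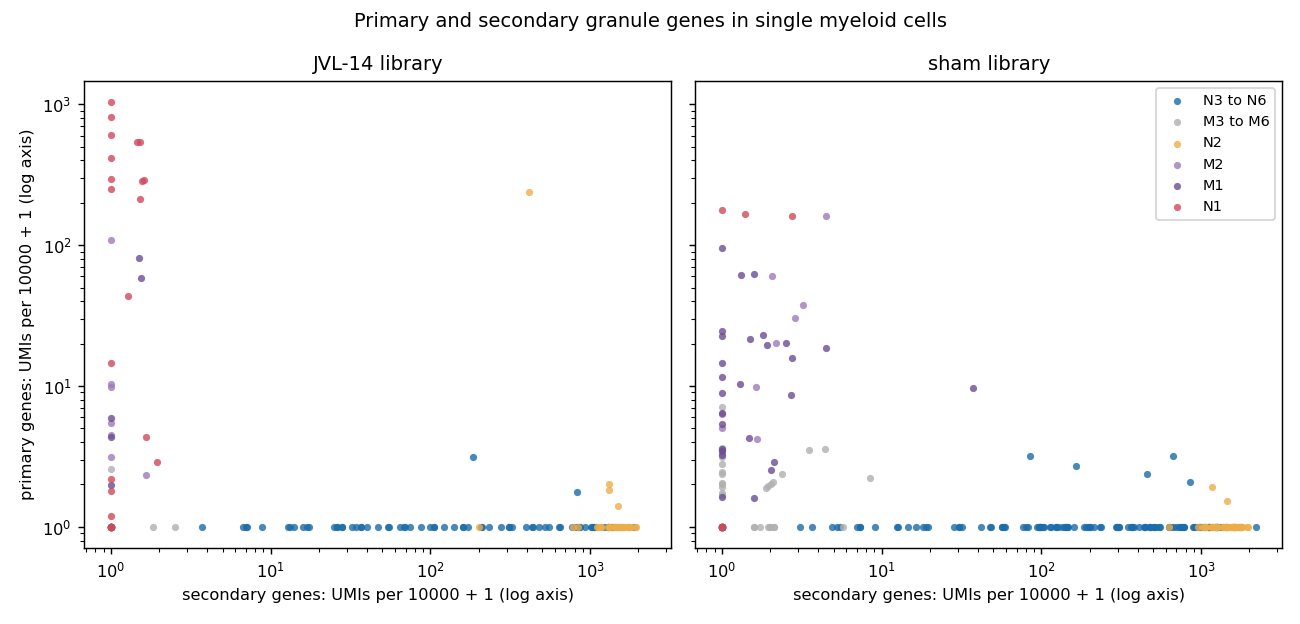
Summed primary against summed secondary granule UMIs per 10000 UMIs (each plus 1, log axes) for every myeloid cell, JVL-14 on the left and sham on the right, coloured by cluster group. Cells spread along the 2 axes, and 1 JVL-14 cell of N2 with 954 primary and 1650 secondary UMIs stands away from both.

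Chil3 was made in 2 lineages. In N2 it was at 5194 CPM in JVL-14 and 7783 CPM in sham (0.667, 0.631 to 0.706, just short of 1.5-fold), in N3 at 2479 and 2988 CPM and in N4 at 1013 and 1225 CPM. In N5 it had 0 UMIs in JVL-14 and 9 UMIs in sham. In the monocyte-like M4, which nearly lacked the primary granule genes (2 UMIs in JVL-14 and 34 in sham), it was at 1758 CPM in JVL-14 and 1102 CPM in sham (1.6, 1.37 to 1.85), found in 12 of 17 and 38 of 50 cells. In M1 it was at 633 CPM in JVL-14 and 1384 CPM in sham, and in M2 at 2042 and 1098 CPM. Chil3 was thus lower in JVL-14 in N2, N3 and M1 and higher in M2 and M4, and M1, M2 and M4 together had a ratio of 1.14 (1.03 to 1.26). The M1 and M2 values rest on few cells. Chil3 was found in 3 of 6 JVL-14 and 18 of 30 sham cells of M1, and in 5 of 9 cells of M2 in each library. Chil4 is a near-identical copy, with 0 UMIs in JVL-14 and 1 in sham, so reads shared by both genes leave the Chil3 count uncertain.

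S100a8 was the most even of the members. It was found in every cell of N2 to N6 in both libraries, at 167448 CPM in JVL-14 and 181899 CPM in sham in N2, 176545 and 176574 CPM in N3, 180025 and 180196 CPM in N4, 155622 and 152098 CPM in N5, and 135215 and 121675 CPM in N6. Its ratio ran from 0.921 (0.911 to 0.93) in N2 to 1.11 (1.09 to 1.14) in N6. The neutrophil lineage held 99.6% of its UMIs in JVL-14 and 99.4% in sham. In the lineage as a whole S100a8 was lower in JVL-14 (0.653, 0.649 to 0.657), where N1, which has almost none of it, took 24 of 136 cells, against 6 of 187 in sham.

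All 10 genes were also found at a low level in cells outside the neutrophil and monocyte-like clusters. Free RNA in the droplets is a known source of such UMIs, but barcodes of empty droplets were not analysed here and its part was not tested. Outside the myeloid clusters and the dendritic-like cells lay 2227 JVL-14 and 4232 sham cells, with medians of 4294 and 4090 UMIs. They include macrophage-like and mast-like cells and cells with epithelial genes, so the set is not a background of cells that lack these genes. S100a8 was found in 11.1% and 12.1% of them, Camp in 4.63% and 4.3% and Ngp in 4.22% and 5.01%. Lcn2 was found in 2.29% and 2.48% and Ltf in 1.39% and 1.28%. The primary granule genes were found in 0.404% (Mpo and Ctsg) to 2.07% (Prtn3) of these cells in JVL-14 and in 0.26% (Elane) to 0.945% (Prtn3) in sham, and Chil3 in 0.449% and 1.06%. These cells held 0.215% to 4.23% of the UMIs of each member. With each cell thinned to 1000 UMIs, S100a8 was found in 1.41% of 197 JVL-14 and 1.93% of 464 sham fibroblast-like cells, against 12.6% and 14.2% unthinned. The members did not keep 1 ratio to each other in these cells. In sham fibroblast-like cells, with 72 S100a8 UMIs, 6 Mpo, 9 Prtn3 and 71 Camp UMIs were counted. These were 45.1 (16.5 to 98.1), 36.2 (16.6 to 68.8) and 5.13 (4 to 6.47) times those expected at the retained neutrophil lineage's ratio to S100a8. Of the 71 Camp UMIs, 1 cell held 35. The expected counts leave out monocyte-like cells and the doublet-scored barcodes. The latter held 71.1% of sham primary granule UMIs, so the Mpo and Prtn3 multiples depend on that removal.

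Several cell classes outside the myeloid clusters held more of a member than the fibroblast-like cells did. Ctsg, a relative of the mast cell proteases, had 6 UMIs in 2 of 26 JVL-14 (7.69%) and 10 UMIs in 5 of 70 sham mast-like cells (7.14%), against 0% and 0.425% of fibroblast-like cells, which were deeper. Prtn3 was found in 4 of 23 JVL-14 (17.4%) and 5 of 20 sham neuron-like cells (25%), none of which held S100a8. It was also found in 15 of 191 JVL-14 (7.85%) and 6 of 178 sham olfactory-type neurons (3.37%), against 1.01% and 1.91% of fibroblast-like cells of similar depth. These neuron values rest on 1 or 2 UMIs per cell, and at 1000 UMIs per cell the shares in neuron-like cells were 4.11% in JVL-14 and 2.15% in sham, against 0.126% and 0.27% of fibroblast-like cells. Sham B cell precursor-like cells held 7 Ctsg UMIs, 6 of them in 1 cell. This was 236 (94.9 to 486) times the count expected from their 16 S100a8 UMIs. That expectation too leaves out monocyte-like cells and the doublet-scored barcodes, and the latter held 63.1% of sham Ctsg UMIs. Ltf, which glands also make, had 41 UMIs in 3 unnamed JVL-14 cells with no S100a8, Camp or Ngp, and all 3 held the epithelial genes Epcam (32 UMIs) and Krt18 (77 UMIs). No sham cell outside the myeloid clusters held 3 or more Ltf UMIs.

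Of 9 other primary granule genes, 4 (Lyz2, Srgn, Cd63 and Ctsc) were measured over all retained cells, and 0 were past 1.5-fold, with a median log2 ratio of -0.34. All 4 are also expressed by other cell types. Lyz2, a lysozyme shared with macrophages, was at 2267 CPM in JVL-14 and 2812 CPM in sham, and Ctsc, which activates the granule proteases, at 157 and 210 CPM. The 5 that were too low to be measured include the precursor markers Prss57 and Ms4a3. In the neutrophil lineage 8 of the 9 were measured, and 4 were higher in JVL-14 (Prss57, Cst7, Fcnb and Ms4a3) and 0 lower, with a median of 0.38. Of the 4048 genes measured in the lineage 38.7% were higher and 8.28% lower, with a median of 0.31, and 4 of the 10 members were higher (the primary genes) and 4 lower (Ngp, Lcn2, Chil3 and S100a8). In N2, 3 of 6 measured were higher (Prss57, Fcnb and Ms4a3) and 0 lower, beside the 23.3% of genes higher there. In N1, 4 of 7 measured were higher (Prss57, Cst7, Srgn and Cd63) and 2 lower. The 2 were Ctsc (0.23, 0.141 to 0.374) and Lyz2 (0.147, 0.116 to 0.185), in a cluster where 18.5% of genes were higher and 19.8% lower. Over all retained cells, of 19 other secondary and tertiary granule genes 12 were measured, 1 was higher and 0 were lower, with a median of -0.11. The 1 was Olfm4, a glycoprotein of a neutrophil subset, at 28.3 CPM in JVL-14 and 16.3 CPM in sham. S100a9, the partner of S100a8, was at 9841 CPM in JVL-14 and 9701 CPM in sham.

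Of 11 transcription factors of granule formation 8 were measured over all retained cells. Of these 1 was higher and 2 were lower, beside 5.04% and 5.01% of genes. Myb, a factor of dividing precursors, was at 55.8 CPM in JVL-14 and 12.5 CPM in sham (4.46, 3.94 to 5.06). N1 held 155 of its UMIs in JVL-14 and 9 in sham, and most Myb UMIs of each library lay outside the neutrophil lineage. Cebpb was at 75.1 and 262 CPM (0.287, 0.269 to 0.305) and Cebpd at 404 and 686 CPM (0.589, 0.572 to 0.606), and both are expressed in many cell types. Of 10 inhibitors of granule proteases 6 were measured, 0 were higher and 1 was lower, the metalloprotease inhibitor Timp1 (0.646, 0.599 to 0.697). Of 9 receptors of released granule proteins 3 were measured and 0 were past 1.5-fold, and likewise 5 of 8 neutrophil receptors. Of 8 cell-cycle genes 7 were measured and all 7 were higher in JVL-14, with a median of 1.51, beside 5.04% of genes. Among them were Mki67 (96.2 CPM in JVL-14 and 32.9 CPM in sham) and Rrm2 (111 and 27.2 CPM). Within N1 the direction was mixed, with 2 of 8 measured higher, 4 lower and a median of -0.42. There 18.5% of genes were higher and 19.8% lower. In M1, M2 and M4 together 0 of 8 were higher and 3 lower, beside 10.9% and 9.82% of genes. The part of the cell-cycle genes in the primary granule ratios was not tested. All values of Myb and the cell-cycle genes here leave out the doublet-scored barcodes, and how far that removal moved them was not tested.

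Across 18 classes and both libraries, the genes closest to the summed primary members by Pearson correlation of log2(CPM + 1) were F10 (0.712), Fcnb (0.679), Serpinb10 (0.678), Ms4a3 (0.670) and Frrs1 (0.620). N1, with 6 sham cells, was too small to enter, and with classes of at least 5 cells Ms4a3 came first (0.841). Closest to the summed secondary members were S100a9 (0.980), Ceacam10 (0.976), Mrgpra2b (0.973), Gm30716 (0.970) and Gm57005 (0.969). Closest to S100a8 were S100a9 (0.964), 9830107B12Rik (0.957), Ceacam10 (0.952), Slfn4 (0.946) and Mrgpra2b (0.941). The 36 values come in pairs from the same libraries and share depth, and 10073 genes were compared.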

How the data were processed

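Each library was made with a droplet 3′ kit, per the labels' protocols. The deposited files hold counts of UMIs per gene and barcode, not normalised, written by Cell Ranger 8.0.0 per the file headers. Per the submitters' processing notes the build was mm39, and no gene annotation is named in the sources used here. The counting of 3′ ends is not scaled by length, so levels are not compared between genes. Reads of near-identical copies can be split by such counting.

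From these counts, barcodes with under 200 genes (244 JVL-14, 266 sham) or over 10% mitochondrial UMIs (154, 288) were dropped. The doublet caller Scrublet, as in scanpy 1.11.5, marked 6 of 2608 JVL-14 (0.23%) and 6 of 4951 sham barcodes (0.121%), under 0.5%, so the top 5% of scores were removed (137, 279). Both libraries were clustered together without integration, in Python 3.11.15 with leidenalg 0.10.2. Counts were scaled to 10000 per cell and logged, and 2000 variable genes without the 10 members, 30 principal components, 15 neighbours and Leiden resolution 1 were used. Myeloid clusters were then clustered alone, a step chosen after seeing the data. A cluster was named when at least 3 markers of a class were raised 1.5-fold and found in at least 10% of its cells, and stayed unnamed when other classes led it. Names were rebuilt here and may differ from the study's.

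UMIs were summed per cluster and library and given as CPM. Shares carry exact Clopper-Pearson intervals, and ratios exact conditional binomial intervals (scipy 1.17.1). They take UMIs as independent, so they are too narrow where few cells hold a gene. No test was possible. A gene was called past 1.5-fold. The calculations were tested on simulated data. The members, lists and markers were chosen with earlier results of these data known. The text names the 10 members, genes of a list as examples by UMIs or where called, and the 5 genes most alike. Cell filters, doublet removal, clustering settings, the richest cells and the scaling were varied.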

Additional observations from a re-analysis of the deposited data

Results flagged for a closer look

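Barcodes left out for few genes or much mitochondrial RNA, which no comparison above uses, held Ltf at a higher level in JVL-14 than in sham. The 396 JVL-14 barcodes held 19 Ltf UMIs (9.65 CPM) and the 544 sham barcodes 4 UMIs (1.74 CPM), a ratio of 5.55 (1.84 to 22.4). In JVL-14, 16 of the 19 UMIs were in 2 barcodes, both with the epithelial gene Epcam, and none of these 16 came with Camp or Ngp. In the same barcodes S100a8 had 32 UMIs (16.3 CPM) in JVL-14 and 95 UMIs (41.3 CPM) in sham.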

How the results depend on the processing

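No paired analysis was possible because each group has 1 library, and there was no replicate to leave out. Ratios of JVL-14 over sham are given throughout.

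Over all retained cells the summed primary genes (5.17) had a ratio of 1.9 over all deposited barcodes, 1.98 with doublets kept, 2.28 with at least 500 genes, 2.39 with at most 5% mitochondrial UMIs, 3.87 without the 5 richest cells, 1.57 without these and with doublets kept, and 7.75 as a mean over cells. For the summed secondary genes (1.06) the same settings gave 0.84, 0.875, 0.822, 0.89, 0.93, 0.772 and 1.12, so their direction turned within 1.5-fold. The share of cells named precursor-like (7.56) was 2.32 with 500 genes, 1.57 with 5% mitochondrial UMIs, 1.97 at resolution 0.5 and 0.633 with doublets kept, but the name did not cover the same cells. With doublets kept it went to 7 JVL-14 and 21 sham cells led by Fcnb, none of them from N1, whose cells were in a basophil-like cluster. With 500 genes it covered 2 and 13 and with 5% mitochondrial UMIs 7 and 19 such Fcnb-led cells besides the Ctsg- and Mpo-led ones, and at resolution 0.5 it covered 47 and 45 cells. The lineage share (1.38) was 1.09 with doublets kept. The maturing (1.09) and mature (1.31) shares stayed within their intervals in every setting run.

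Within the cells so named the summed primary genes (1.25) had 1.94 with members among the variable genes, 0.846 with doublets kept (of the Fcnb-led cluster), 1.17 with 500 genes, 2.04 with 5% mitochondrial UMIs, 3.42 at resolution 0.5 and 2.65 as a mean over cells. Leaving out the 5 richest cells was not run there, with 6 sham cells. Summed secondary genes in maturing cells (0.994) had 1.01 with members among the variable genes, 1.03 with doublets kept, 0.957 with 500 genes, 1 with 5% mitochondrial UMIs, 1.03 at resolution 2, 0.952 without the 5 richest cells, 0.948 scaled to other genes and 1.03 as a mean over cells. S100a8 in mature cells (1.04) had 1.02, 1.06 and 0.99 in the first 3 of these, 0.99 without the 5 richest cells and 1.06 as a mean over cells. Chil3 in mature cells (1.75, from 1 cell) turned to 0 with members among the variable genes, 0 with doublets kept, 0.476 with 500 genes, 0.0333 with 5% mitochondrial UMIs, and 0 at both other resolutions and without the 5 richest cells.

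The cause of these moves was not tested. Barcodes near a larger one, the count of primary-rich cells and classes of at least 5 cells were alternatives chosen after seeing the data. At a 2-fold limit, 4 members stayed higher over all retained cells, beside 1.68% of genes. With the doublet-scored barcodes kept, Elane (2.44) was past 2-fold, but Ctsg (1.87), Mpo (1.73) and Prtn3 (1.73) were not. With no filter on low values, 4 members were at least 1.5-fold higher over all retained cells, beside 20.3% of genes. The 24 JVL-14 and 6 sham precursor-like cells limit the precision.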

Other observations

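The doublet-scored barcodes also held a larger share of the other members' transcripts in sham than in JVL-14. They held 924 Chil3 UMIs in JVL-14, 23.6% of those in all filtered barcodes, and 4492 in sham, or 39.7%. For Camp the values were 16.9% in JVL-14 and 36.2% in sham, and for S100a8 11% and 22.9%.

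In N2, where the doublet score left 31 JVL-14 and 43 sham cells, genes of the cell cycle were higher in JVL-14, 5 of 5 measured, as were 23.3% of the 2892 genes measured there. Pclaf was at 153 CPM in JVL-14 and 30.3 CPM in sham (5.07, 2.81 to 9.68) and Mki67 at 110 and 30.3 CPM (3.63, 1.95 to 7.11). The 1 cell with primary and secondary granule transcripts is among these cells, and its part was not tested.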
